A study of Mus musculus with 6 samples.

Results

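The platelet-derived growth factor (PDGF) family was followed in kidneys of Fat4-/- mouse embryos and their Fat4+/+ littermates: the 4 ligand genes Pdgfa, Pdgfb, Pdgfc and Pdgfd and the 2 receptor genes Pdgfra and Pdgfrb. The members were taken by gene name, and all 6 were found among the 22667 genes of the table. One group held 3 Fat4-/- embryos and the other 3 Fat4+/+ embryos, all at E13.5, on a C57BL6/6 background backcrossed 6 times and from 1 pregnant female. Each library was made from both kidneys of 1 embryo, cut free of most of the ureter. The mutation is carried in the whole embryo per the genotype label. Which exons it removes is not stated in the labels.

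PDGF ligands are secreted dimers that bring 2 receptor chains together at the cell surface, so that each chain phosphorylates the other and recruits signalling proteins. Pdgfra encodes PDGF receptor alpha, which sits mainly on mesenchymal cells and responds to PDGF-AA and PDGF-CC. Pdgfrb encodes receptor beta, which sits on pericytes, smooth muscle and mesangial cells and responds to PDGF-BB and PDGF-DD. PDGF-BB also binds receptor alpha. In the kidney, endothelial PDGF-B acting on receptor beta is known for drawing mesangial cells into the glomerulus. Fat4 is a very large cadherin with Dachsous proteins as its partners on neighbouring cells, and the study asked how its loss from the stroma acts on nephron progenitors.

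Expression was deposited as cRPKM, corrected values of reads scaled to gene length and to mapped reads, so levels of genes of different length can be set side by side. Fat4 was at 7.82, 7.20 and 7.49 cRPKM in mutant embryos 1, 2 and 3, against 16.74, 15.69 and 16.83 cRPKM in wildtype embryos 1, 2 and 3. The mutant mean was 45.7% of the wildtype mean, so the transcript was reduced but present, and its level alone does not show a loss of both copies. Markers of nephron progenitors, stroma and ureteric epithelium were present in every library, as the tissue label states. The liver list summed to at most 1.09 cRPKM in mutant and 0.55 cRPKM in wildtype libraries. The adrenal list stayed at or under 2.42 and 2.40 cRPKM. The 4 Y-linked genes tested were expressed in mutant embryo 1 (8.07 to 24.59 cRPKM) and in all 3 wildtype embryos (7.79 to 27.06 cRPKM). In mutant embryos 2 and 3 they were at 0.01 to 0.05 cRPKM, so sex was uneven between the genotypes. Read totals are unknown. Judged by the spacing of low values, the other libraries had 0.906 to 1.036 times as many reads as wildtype embryo 1. These estimates are rough, since the spacing accounted for only 17 of 35 genes in wildtype embryo 3 and at best 22 of 32 in mutant embryo 2. Library sums ran from 477953 to 503223 cRPKM in mutant and from 473695 to 496707 cRPKM in wildtype libraries.

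The members changed in opposite directions at the alpha receptor and at 1 of its ligands. Pdgfra fell in mutant kidneys to 0.710 times the wildtype mean, and Pdgfc, whose product binds the receptor that Pdgfra encodes, rose to 1.21 times it. Pdgfrb, Pdgfa, Pdgfb and Pdgfd did not pass the test. All 6 members were high enough to test, and 1 was called higher and 1 lower by limma at an adjusted p under 0.05. Of all 12315 tested genes 0.552% were called higher and 0.877% lower, or 1.43% in either direction. At an unadjusted p under 0.05 there were 5.08% higher and 7.97% lower, or 13% in either direction, and the counts of unadjusted p in the gene lists are to be read against these shares. The groups did not overlap for 2 of the 6 members (33.3%) and for 18.2% of all tested genes. The members were chosen with the fall of Pdgfra already known, so their count says nothing about a choice of genes made blind.

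The promoters of the 2 called members are shown because both genes changed in these kidneys. The 250 bases before each RefSeq start (GRCm38.p6, plus strand) were Pdgfra at chr5:75152001-75152250 and Pdgfc at chr3:81036166-81036415. Capitals mark matches to GGAATG, the core recognised by TEAD factors, and to CANNTG, the E-box recognised by basic helix-loop-helix factors, searched on both strands.
Pdgfra: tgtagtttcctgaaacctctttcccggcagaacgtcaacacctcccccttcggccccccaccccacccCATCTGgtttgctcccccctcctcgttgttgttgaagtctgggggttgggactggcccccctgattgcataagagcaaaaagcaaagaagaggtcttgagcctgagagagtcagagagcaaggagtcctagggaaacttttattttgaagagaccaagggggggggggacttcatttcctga
Pdgfc: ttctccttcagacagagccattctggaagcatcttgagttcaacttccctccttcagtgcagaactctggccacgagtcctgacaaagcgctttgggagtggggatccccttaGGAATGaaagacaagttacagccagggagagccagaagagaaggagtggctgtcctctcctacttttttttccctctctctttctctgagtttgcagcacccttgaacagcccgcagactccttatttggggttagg

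The Pdgfra window held 1 E-box, beginning 182 bases before the start, and no GGAATG. The Pdgfc window held 1 GGAATG, beginning 137 bases before the start, and no E-box. Of 32851 mouse promoter windows of the same length, 66.2% held CANNTG and 12.6% held GGAATG. Neither window held TATAAA, the letters of the TATA box, which stood in 12.4% of all windows. The GC box, with the letters GGGCGG (32.7% of windows), the box with the letters CCAAT (33.8%) and the forkhead site with the letters GTAAACA (3.2%) were also missing from both. The windows were 54.4% GC for Pdgfra and 50.8% GC for Pdgfc, near the median of 52.4% over all windows. A match of letters is a description and not a binding site.

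Among the receptors, Pdgfra (ENSMUSG00000029231, chromosome 5, 75152292 to 75198215 on GRCm38, plus strand) was at 30.37, 29.67 and 29.21 cRPKM in mutant embryos 1, 2 and 3, against 43.97, 39.81 and 41.85 cRPKM in wildtype embryos 1, 2 and 3. All 3 mutant libraries lay below all 3 wildtype libraries, with a gap between the groups wider than the range within either group. The range was wider in wildtype than in mutant libraries. The mean was 29.8 ± 0.584 cRPKM in mutant and 41.9 ± 2.08 cRPKM in wildtype kidneys (SD, n = 3 each). The log2 fold change on the log2(cRPKM + 1) scale was -0.48 (SE 0.0453, 95% interval -0.58 to -0.37, limma adjusted p = 0.00427), and the gene ranked 12 by p among all tested genes. Mutant embryo 1, the mutant that shares Y-linked expression with the wildtype embryos, was at 30.37 cRPKM, the highest of the 3 mutants and below the wildtype range of 39.81 to 43.97 cRPKM. With the mean log2 level of the Y-linked genes as a covariate the fold change was -0.45 and the call was lost (limma adjusted p = 0.183).

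Pdgfrb (ENSMUSG00000024620, chromosome 18, 61045150 to 61085061 on GRCm38, plus strand) was at 26.31, 24.35 and 26.85 cRPKM in mutant embryos, against 27.09, 26.13 and 28.55 cRPKM in wildtype embryos. The groups overlapped. The mean was 25.8 ± 1.32 cRPKM in mutant and 27.3 ± 1.22 cRPKM in wildtype kidneys (SD, n = 3 each), with a log2 fold change of -0.07 (95% interval -0.19 to 0.04, limma adjusted p = 0.611). The interval for Pdgfrb and that for Pdgfra did not overlap.

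The balance of the receptors was read within each library, which removes any scaling between libraries. The ratio of Pdgfra to Pdgfrb was 1.154, 1.218 and 1.088 in mutant embryos, against 1.623, 1.524 and 1.466 in wildtype embryos. Every mutant ratio was below every wildtype ratio. The mean was 1.15 ± 0.0650 in mutant and 1.54 ± 0.0794 in wildtype kidneys (SD, n = 3 each), and the difference of the log2 ratios was -0.41 (exact permutation test, 2-sided, p = 0.1, the smallest p that 3 against 3 can give). Pdgfra is part of this ratio and its fall was already known, so the ratio is a description and not a separate test. The sum of both receptor levels was 55.6 ± 1.39 cRPKM in mutant and 69.1 ± 2.79 cRPKM in wildtype kidneys (SD, n = 3 each).

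**Figure D1:**
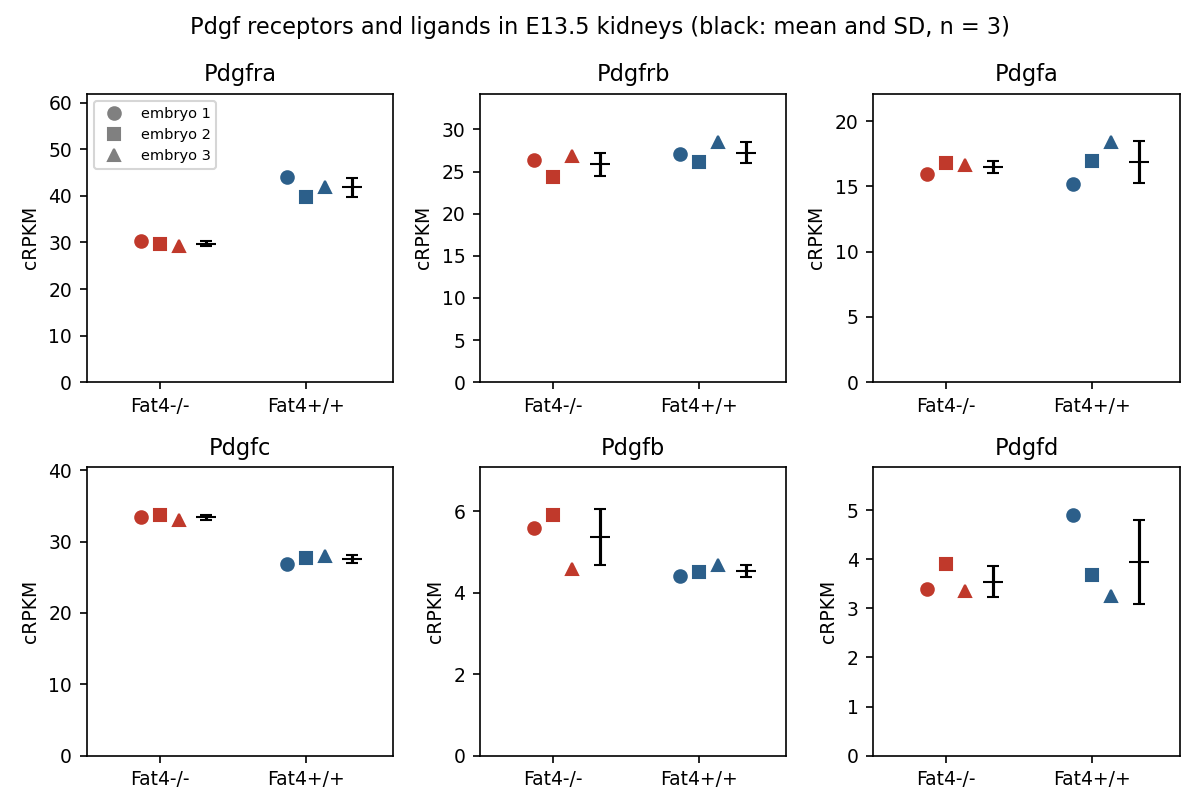
Level of each Pdgf receptor and ligand gene in every library, in cRPKM on a linear axis from 0, with Fat4-/- left of Fat4+/+; symbols mark embryos 1 to 3 and black marks the mean and SD (n = 3). Pdgfra sits at 29.21 to 30.37 cRPKM in mutant and 39.81 to 43.97 cRPKM in wildtype kidneys, Pdgfc at 33.07 to 33.72 and 26.87 to 27.93 cRPKM, and the other 4 genes overlap between the genotypes.

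Among the ligands of receptor alpha, Pdgfc encodes a chain that is secreted in a latent form with a CUB domain and must be cut before it can bind. Pdgfc (ENSMUSG00000028019, chromosome 3, 81036416 to 81214040 on GRCm38, plus strand) was at 33.43, 33.72 and 33.07 cRPKM in mutant embryos 1, 2 and 3, against 26.87, 27.77 and 27.93 cRPKM in wildtype embryos 1, 2 and 3. All mutant libraries lay above all wildtype libraries, and the range within each genotype was narrow. The mean was 33.4 ± 0.326 cRPKM in mutant and 27.5 ± 0.571 cRPKM in wildtype kidneys (SD, n = 3 each), with a log2 fold change of 0.27 (SE 0.0363, 95% interval 0.19 to 0.35, limma adjusted p = 0.0191). The call was lost without wildtype embryo 1 or without any 1 mutant embryo (limma adjusted p from 0.0579 to 0.0679), with the fold change between 0.25 and 0.28. It was also lost with the Y-linked covariate (fold change 0.27, limma adjusted p = 0.348). Mutant embryo 1, with Y-linked expression, was at 33.43 cRPKM, between the other mutants.

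Pdgfc lies on the same chromosome as Fat4, 42.0 Mb away. In a line backcrossed 6 times, sequence linked to the mutated gene can still come from the strain in which the mutation was made, and its effect and that of Fat4 cannot be told apart for a linked gene. None of the 27 tested genes within 5 Mb of Pdgfc was called, and their median log2 fold change was -0.02. Called genes made up 9.0% of 100 tested genes on that chromosome within 20 Mb of Fat4, 1.84% of 488 beyond that distance, where Pdgfc lies, and 1.37% on the other chromosomes. The first share counts Fat4 itself and the next counts Pdgfc.

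Pdgfa encodes the other chain that binds receptor alpha alone. It was at 15.96, 16.79 and 16.65 cRPKM in mutant embryos, against 15.20, 16.93 and 18.43 cRPKM in wildtype embryos. The mutant values lay inside the wildtype range. The mean was 16.5 ± 0.444 cRPKM in mutant and 16.9 ± 1.62 cRPKM in wildtype kidneys (SD, n = 3 each), with a log2 fold change of -0.03 (95% interval -0.18 to 0.12, limma adjusted p = 0.904). Pdgfa (ENSMUSG00000025856, chromosome 5, 138976014 to 138997370, minus strand, GRCm38) overlaps the antisense gene 6330403L08Rik, which averaged 1.70 cRPKM. Whether the counting used strand is not stated in the labels, so reads of the overlap may be assigned to either gene.

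Pdgfb (ENSMUSG00000000489, chromosome 15, 79995874 to 80014977 on GRCm38), the chain made by endothelium, was at 5.60, 5.91 and 4.59 cRPKM in mutant embryos, against 4.41, 4.52 and 4.68 cRPKM in wildtype embryos. Mutant embryos 1 and 2 were above every wildtype embryo and mutant embryo 3 lay inside the wildtype range. The log2 fold change was 0.20 (95% interval 0.02 to 0.38, unadjusted p = 0.0363 and limma adjusted p = 0.338). Of the endothelial list 1 of 11 tested genes was lower (Cldn5) and none higher, against 0.877% and 0.552% of all tested genes. At an unadjusted p under 0.05 there were 3 lower and 1 higher, against 7.97% and 5.08%. The median log2 fold change of the list was -0.03. The call of Cldn5, a claudin of endothelial junctions (log2 fold change -0.40, limma adjusted p = 0.0229), was lost without wildtype embryo 1 or any 1 mutant embryo (up to 0.0901). Tek, the angiopoietin receptor gene, was at 8.73 ± 0.739 cRPKM in mutant and 11.3 ± 0.800 cRPKM in wildtype kidneys (SD, n = 3 each, log2 fold change -0.34, limma adjusted p = 0.0599). Emcn, for the sialomucin endomucin, was at -0.18 (limma adjusted p = 0.112) and Eng, for endoglin, at 0.15 (limma adjusted p = 0.253), while the junction protein genes Pecam1 and Cdh5 were at -0.03 and -0.01. The list summed to 187.0 to 198.4 cRPKM in mutant and 196.2 to 210.4 cRPKM in wildtype libraries, and its part in the Pdgfb value was not tested.

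Pdgfd (ENSMUSG00000032006, chromosome 9, 6168584 to 6378850 on GRCm38), the other latent CUB-domain chain, binds receptor beta once it is cut. It was at 3.39, 3.90 and 3.35 cRPKM in mutant embryos, against 4.90, 3.67 and 3.25 cRPKM in wildtype embryos. Wildtype embryo 1 was the highest of the 6 libraries, and the other values overlapped. The log2 fold change was -0.11 (95% interval -0.37 to 0.15, limma adjusted p = 0.763), and without wildtype embryo 1 it was 0.03. That library also stood apart for the proteoglycan gene Dcn, at 15.51, 14.82 and 14.38 cRPKM in mutant embryos and 36.47, 19.07 and 13.93 cRPKM in wildtype embryos. The part of this in the Pdgfd value was not tested.

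The order of the 6 levels differed at its top. Pdgfc was the highest member in all 3 mutant libraries, followed by Pdgfra, Pdgfrb and Pdgfa. Pdgfra was the highest in all 3 wildtype libraries, followed by Pdgfrb and Pdgfc, whose values overlapped there, and then by Pdgfa. Pdgfb and Pdgfd were the lowest members throughout. They did not overlap in mutant libraries but did in wildtype libraries, where Pdgfd was above Pdgfb in embryo 1 alone.

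The ligand levels summed to 58.38, 60.32 and 57.66 cRPKM in mutant embryos, against 51.38, 52.89 and 54.29 cRPKM in wildtype embryos. The groups did not overlap, with a difference of 5.93 cRPKM (exact permutation test, 2-sided, p = 0.1, the smallest possible). Pdgfc is the largest part of this sum and averaged 33.4 cRPKM in mutant and 27.5 cRPKM in wildtype kidneys. Its rise alone is about as large as the difference of the sums, and Pdgfa, Pdgfb and Pdgfd did not pass. The sum is therefore a description and not a separate test. Pdgfc made up 56.8% ± 0.812 of the sum in mutant and 52.1% ± 0.561 in wildtype kidneys (SD, n = 3 each), and Pdgfa made up 28.0% ± 0.787 and 31.8% ± 2.19. The ratio of Pdgfc to Pdgfra was 1.101, 1.137 and 1.132 in mutant embryos, against 0.6111, 0.6976 and 0.6674 in wildtype embryos. The ratio of all ligands to both receptors was 1.06 ± 0.0505 in mutant and 0.765 ± 0.0398 in wildtype kidneys (SD, n = 3 each). Both ratios were computed after the values of Pdgfra and Pdgfc were known and are given as descriptions. RNA levels do not give the amount of active ligand, since the latent chains of Pdgfc and Pdgfd must still be cut after secretion.

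**Figure D2:**
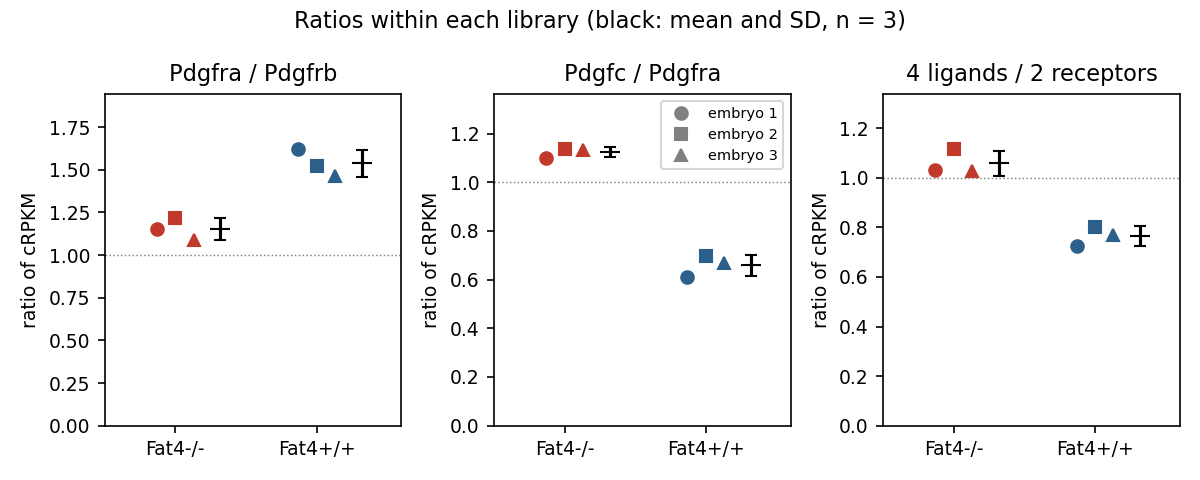
Ratio of cRPKM within each library for Pdgfra over Pdgfrb, Pdgfc over Pdgfra, and the sum of the 4 ligands over the sum of the 2 receptors, on linear axes from 0, with Fat4-/- left of Fat4+/+; symbols mark embryos, black marks the mean and SD (n = 3), and the dotted line marks equal levels. Pdgfc exceeds Pdgfra in every mutant library (1.101 to 1.137) and lies below it in every wildtype library (0.6111 to 0.6976).

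The nearest relatives of the receptors did not pass. Of the 5 tested related receptor kinases, none was called by limma and none had an unadjusted p under 0.05. Kit, the stem cell factor receptor, averaged 8.05 ± 0.103 cRPKM in mutant and 8.43 ± 0.326 cRPKM in wildtype kidneys (SD, n = 3 each, log2 fold change -0.06, 95% interval -0.16 to 0.04, limma adjusted p = 0.641). Kdr, the main receptor for Vegf in endothelium, was at 19.83 to 22.66 cRPKM in mutant and 21.51 to 22.30 cRPKM in wildtype kidneys (-0.03, 95% interval -0.15 to 0.10, limma adjusted p = 0.883). Kit and Kdr lie 0.38 and 0.73 Mb from Pdgfra on chromosome 5. Of the 32 tested genes within 5 Mb of Pdgfra 1 was called. It was Igfbp7, which encodes a secreted insulin-like growth factor binding protein, at 8.79, 7.88 and 8.23 cRPKM in mutant embryos and 13.36, 13.14 and 18.57 cRPKM in wildtype embryos (limma adjusted p = 0.0229), a call lost without any 1 mutant embryo (up to 0.0967). It was named after its values were seen.

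The Vegf receptors Flt1 and Flt4 and the macrophage receptor Csf1r had log2 fold changes of 0.05, 0.01 and 0.08. Flt3, a receptor of blood progenitors, was too low to test, at 0.00 to 0.03 cRPKM in mutant and 0.01 cRPKM in each wildtype library. Of the 7 related ligands, none passed by limma and 2 had an unadjusted p under 0.05, both higher, against 5.08% of all tested genes. Pgf, for placental growth factor, was at 11.49, 12.52 and 11.10 cRPKM in mutant embryos, against 10.06, 9.91 and 9.11 cRPKM in wildtype embryos (log2 fold change 0.25, limma adjusted p = 0.0860). The groups did not overlap. Vegfb was at 22.5 ± 0.793 cRPKM in mutant and 20.4 ± 0.732 cRPKM in wildtype kidneys (SD, n = 3 each, log2 fold change 0.13, limma adjusted p = 0.241). Vegfa and Vegfc (log2 fold changes -0.01 and 0.01), Figf (-0.15), Kitl (-0.10) and Csf1 (-0.08) did not pass.

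**Figure D3:**
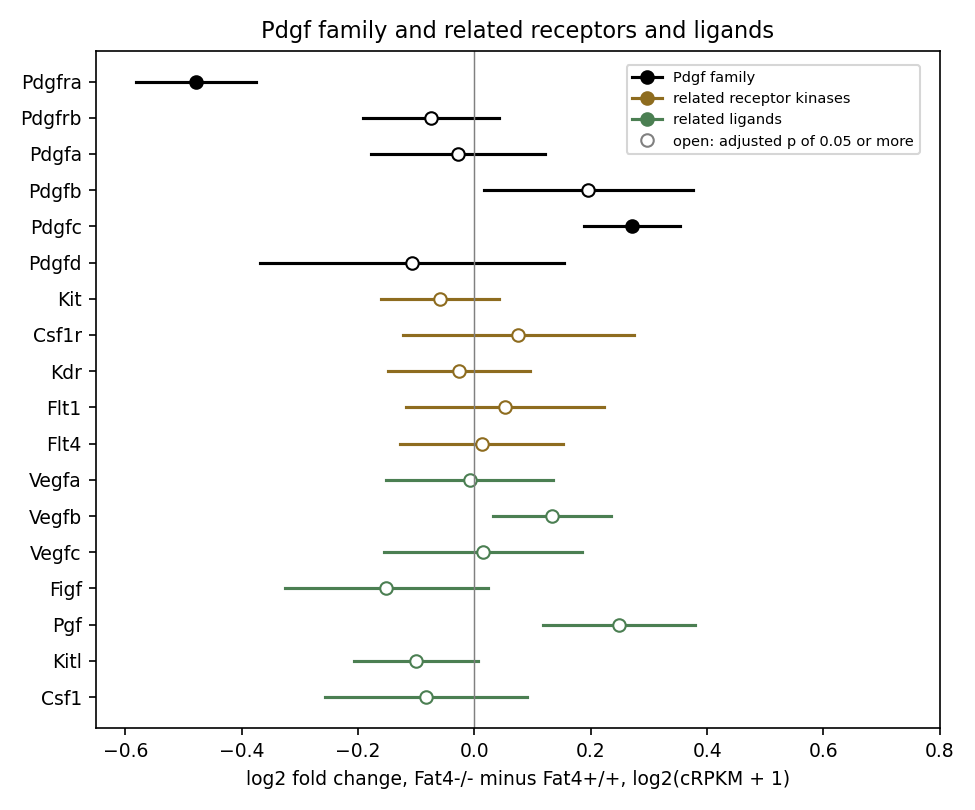
Log2 fold change (Fat4-/- minus Fat4+/+ on the log2(cRPKM + 1) scale) with its 95% interval from limma for the 6 Pdgf genes, 5 related receptor kinases and 7 related ligands; filled points have an adjusted p under 0.05 over all tested genes. Pdgfra at -0.48 and Pdgfc at 0.27 are the filled points.

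Genes that prepare PDGF ligands or hold them at the cell surface did not pass. None of 11 tested genes was called by limma, and 3 had an unadjusted p under 0.05 (1 higher and 2 lower, against 13% of all tested genes), with a median log2 fold change of -0.04 against -0.01 over all tested genes. Plat encodes tissue plasminogen activator, which cuts latent PDGF-CC. It was at 46.40, 49.11 and 47.60 cRPKM in mutant embryos, against 43.43, 43.97 and 44.43 cRPKM in wildtype embryos (log2 fold change 0.12, unadjusted p = 0.0153, limma adjusted p = 0.236). Plau encodes urokinase, which cuts latent PDGF-DD. It was at 4.78, 5.32 and 5.11 cRPKM in mutant embryos, against 6.87, 5.70 and 6.15 cRPKM in wildtype embryos (-0.25, unadjusted p = 0.00550, limma adjusted p = 0.136). Neither protease gene overlapped between the genotypes, Plat being above and Plau below wildtype. The groups did not overlap for 18.2% of all tested genes. Both genes were named for a small unadjusted p within the list, so their lack of overlap is a description only. Pcsk5, a proprotein convertase, was at -0.15 (limma adjusted p = 0.367).

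Signalling genes downstream of the receptors, which other receptors use too, did not pass. Of 32 listed genes 31 were tested, and none was called by limma, with 2 at an unadjusted p under 0.05, both lower. Their median log2 fold change was 0.01. Pik3r1, a regulatory subunit of the lipid kinase PI3K, was at -0.14 (limma adjusted p = 0.195) and the transcription factor gene Stat3 at -0.10 (adjusted p = 0.416).

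Among 13 tested genes that restrain the receptors or their signal, 1 was higher and none lower, with a median log2 fold change of -0.02. The called gene was Spry2, a feedback inhibitor of receptor kinase signalling, at 21.75, 24.50 and 22.57 cRPKM in mutant embryos and 18.56, 18.83 and 17.98 cRPKM in wildtype embryos (log2 fold change 0.30, limma adjusted p = 0.0324). Its call was lost without each of the 6 libraries in turn (limma adjusted p up to 0.101). Lrig1, which marks receptor kinases for breakdown, was at 0.18 (limma adjusted p = 0.0873).

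Of 20 genes that PDGF is known to induce in fibroblasts, 14 were tested, 1 was higher and none lower. These genes answer other growth factors and the handling of tissue as well. The median log2 fold change was 0.08, and 10 of the 14 were above 0; at an unadjusted p under 0.05 there were 6 higher and none lower, against 5.08% and 7.97% of all tested genes. Has2, which makes hyaluronan, was at 26.47, 27.42 and 27.70 cRPKM in mutant embryos, against 21.72, 23.78 and 20.44 cRPKM in wildtype embryos (log2 fold change 0.30, limma adjusted p = 0.0464). The call was lost in 10 of 15 alternatives, among them those without any 1 mutant embryo or without wildtype embryo 1 or 3 (limma adjusted p up to 0.166 with 1 library left out). Ier2 and Myc, genes of the early growth factor response, were at 0.20 and 0.24 (limma adjusted p = 0.0885 and 0.172). Ccl2 and Cxcl1, first found as PDGF-induced genes in fibroblasts, were too low to test, at no more than 0.33 cRPKM in mutant and 0.40 cRPKM in wildtype libraries.

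**Figure D4:**
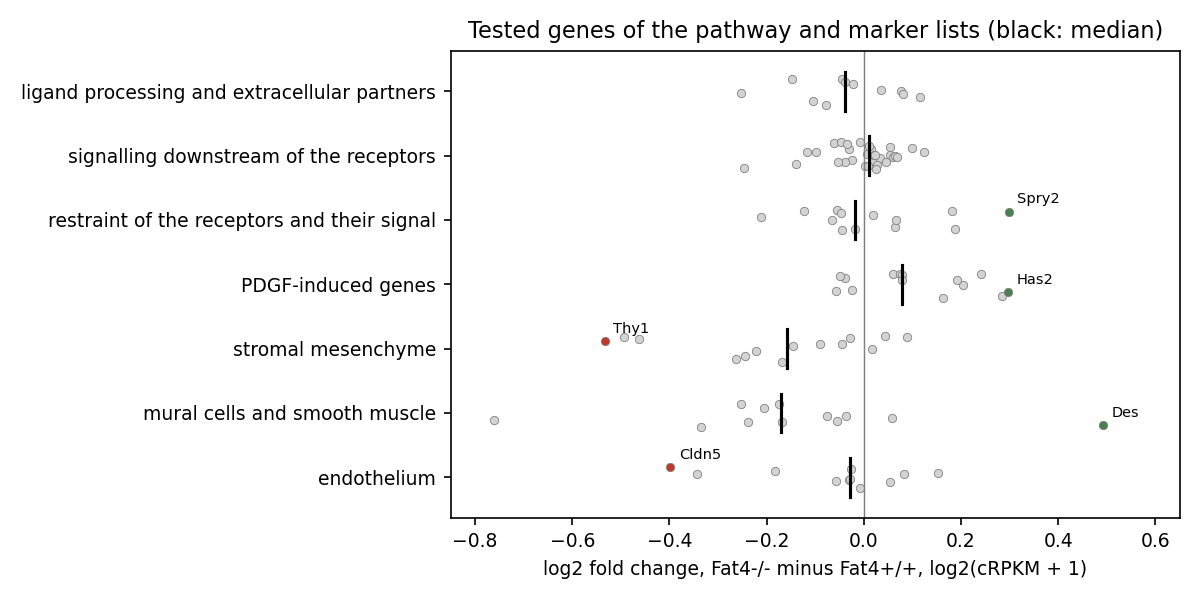
Log2 fold change (Fat4-/- minus Fat4+/+ on the log2(cRPKM + 1) scale) of each tested gene in 4 PDGF pathway lists and 3 lists of cell type markers; each point is a gene, black bars are list medians, and coloured points with names have an adjusted p under 0.05 over all tested genes. Spry2, Has2 and Des lie to the right of 0 and Thy1 and Cldn5 to the left, and the other points did not pass.

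Markers of the cells that carry the receptors were set beside Pdgfra. Of 14 stromal mesenchyme genes other than Pdgfra, all tested, 1 was lower and none higher, and 11 were below 0 (median log2 fold change -0.16). At an unadjusted p under 0.05 there were 4 lower and none higher, against 7.97% and 5.08% of all tested genes. The called gene was Thy1, a surface protein of fibroblasts, at 9.57, 9.73 and 9.71 cRPKM in mutant embryos and 14.65, 14.20 and 14.48 cRPKM in wildtype embryos (-0.53, limma adjusted p = 0.00122). Foxd1, which defines stromal progenitors, was at 43.2 ± 4.43 cRPKM in mutant and 42.0 ± 5.04 cRPKM in wildtype kidneys (SD, n = 3 each, log2 fold change 0.04). The stromal transcription factor genes Tcf21 and Snai2 were at -0.26 and -0.24 (limma adjusted p = 0.0660 and 0.0536). Tcf21 passed with quantile normalisation (0.0329), upper quartile scaling (0.0457) and library weights (0.0219), and Snai2 with library weights (limma adjusted p = 0.0322). The list summed to 884.3 to 940.5 cRPKM in mutant and 878.6 to 1177 cRPKM in wildtype libraries, and these ranges overlapped. Wildtype embryo 1 gave the highest sum. As for Dcn, it stood apart from wildtype embryos 2 and 3 for Col1a1 (238.34 against 182.40 and 153.27 cRPKM). The same held for Col1a2 (185.91 against 126.15 and 110.73 cRPKM) and Lum (15.18 against 5.58 and 6.16 cRPKM). The median and the sums of this list therefore rest in part on that library, while the values of Thy1 do not. In whole kidneys fewer cells of a type and less RNA per cell cannot be told apart, and the part of stromal cell number in the fall of Pdgfra was not tested.

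Markers of other kidney cells differed between the genotypes in part. Of 9 nephron progenitor genes, all tested, 3 were called higher by limma (Eya1, Osr1 and Meox2) and none lower, with a median log2 fold change of 0.34. At an unadjusted p under 0.05 there were 7 higher and none lower, against 5.08% and 7.97% of all tested genes. The count of called genes was 1 without any 1 mutant embryo or without wildtype embryo 1, also 1 without a filter on low values, and 0 with the Y-linked covariate. The list summed to 389.8 to 447.0 cRPKM in mutant and 323.2 to 366.4 cRPKM in wildtype libraries, with no overlap. The podocyte genes Podxl and Synpo were at log2 fold changes of -0.31 and -0.37 (limma adjusted p = 0.236 and 0.101), with all mutant libraries below all wildtype libraries for both. None of 9 ureteric epithelium genes was called, and 3 of the 9 were above 0. At an unadjusted p under 0.05 there were 4 lower and none higher, against 7.97% and 5.08% of all tested genes. The 4 were Cdh1 (-0.40), Wnt7b (-0.315), Krt18 (-0.23) and Krt8 (-0.17). The list sums of 216.4 to 224.9 cRPKM in mutant and 221.4 to 260.5 cRPKM in wildtype libraries overlapped. Calb1, at 58.9 cRPKM in mutant and 54.0 cRPKM in wildtype kidneys, is the largest part of these sums, so they do not give the level of the 4 lower genes. The part of these markers in the fall of Pdgfra and the rise of Pdgfc was not tested.

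Markers of mural cells, which carry receptor beta, showed no common direction past the test. Of 12 tested genes 1 was higher and none lower, although 10 were below 0 (median log2 fold change -0.17). At an unadjusted p under 0.05 there were 1 higher and 3 lower, against 5.08% and 7.97% of all tested genes. Des, for the filament protein desmin, was at 50.71, 56.73 and 55.04 cRPKM in mutant embryos, against 37.98, 40.80 and 35.89 cRPKM in wildtype embryos (0.49, limma adjusted p = 0.0119). The groups did not overlap; the call was lost without mutant embryo 2 or 3 (limma adjusted p up to 0.0594). Cspg4 and Notch3, which mark pericytes, were at -0.05 and -0.04, and Rgs5, another pericyte gene, at -0.25 (limma adjusted p = 0.0661, and 0.0416 without wildtype embryo 2). Abcc9 and Kcnj8 of the same list were at -0.21 and -0.17 (limma adjusted p = 0.35 and 0.20). Tbx18 and Ren1 were at -0.33 and -0.76 (limma adjusted p = 0.43 and 0.39), and Mcam was at 0.06. The list summed to 184.1 to 188.3 cRPKM in mutant and 178.4 to 190.1 cRPKM in wildtype libraries. Des, which rose, is the largest part of these sums, so they do not give the level of the other mural markers.

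The genes whose profile over the 6 libraries was nearest to each member were found by the root mean square difference of log2(cRPKM + 1) after subtracting each gene's mean, among 9591 other genes (9592 for Pdgfb and Pdgfd) with a mean of at least 5 cRPKM. For Pdgfra they were Prss23, a secreted serine protease gene (difference 0.0230), Ncald, for a neuronal calcium sensor (0.0365), and Epha7, for an ephrin receptor (0.0368), all called lower in mutant kidneys; the call of Epha7 was lost without mutant embryo 2 (limma adjusted p = 0.0526). Prss23 was at 8.41, 7.97 and 8.25 cRPKM in mutant embryos, against 12.46, 11.02 and 12.01 cRPKM in wildtype embryos. For Pdgfc they were Snap91, a clathrin assembly gene (0.0189), Cldn9, a claudin gene (0.0240), and Nes, for the filament protein nestin (0.0251), all called higher in mutant kidneys. Their calls were lost without wildtype embryo 1 or any 1 mutant embryo, and that of Nes also without wildtype embryo 2 and that of Cldn9 without each library (limma adjusted p up to 0.132). Snap91 was at 11.92, 11.75 and 12.00 cRPKM in mutant embryos, against 9.35, 9.80 and 9.65 cRPKM in wildtype embryos. Genotype is part of these profiles, so genes with a like change in mutant kidneys come out as near.

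For the members that did not pass, the near genes did not pass either. They were Srgap2, Ptgfrn and Tgfbrap1 for Pdgfrb (differences 0.00619 to 0.0115), and 5730559C18Rik, Bcl7a and Sox9 for Pdgfa (0.0202 to 0.0247). For Pdgfb they were Pnrc1, Tmsb15b1 and Rhebl1 (0.0346 to 0.0444), and for Pdgfd Gm561, Fkbp7 and Cxcl12 (0.0275 to 0.0406).

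**Figure D5:**
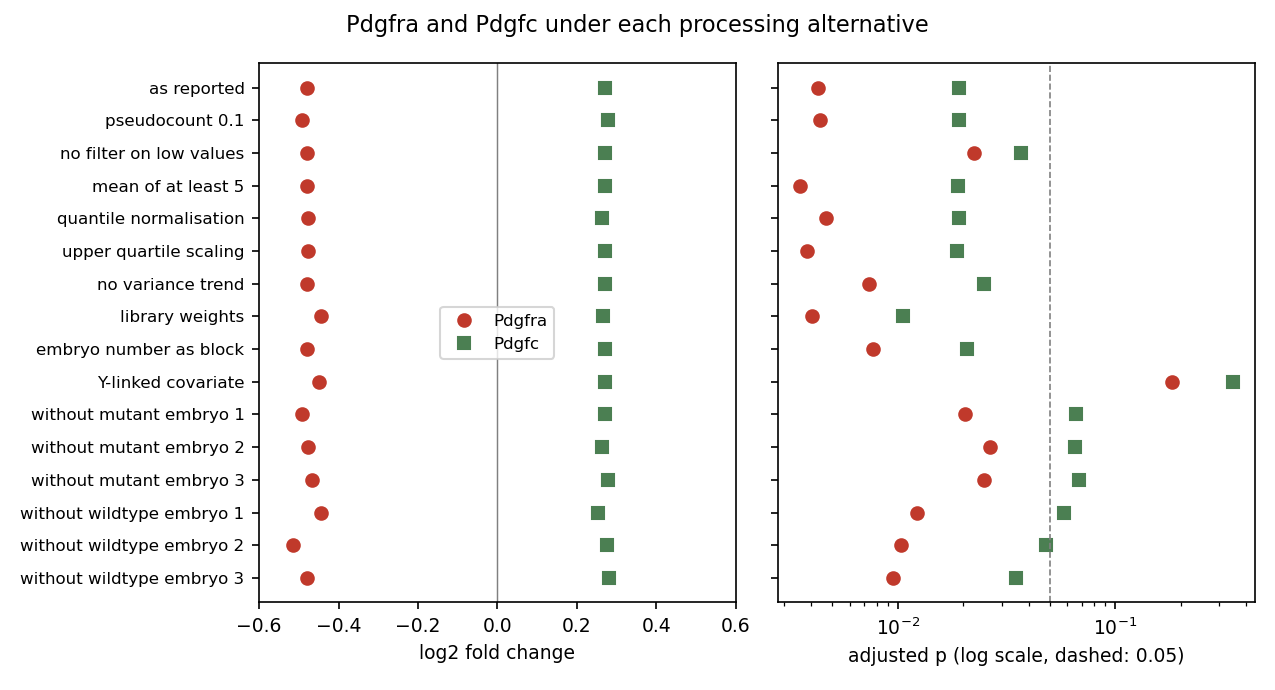
Log2 fold change (left) and adjusted p on a log axis (right) of Pdgfra and Pdgfc as reported and under each of 15 processing alternatives, with the threshold of 0.05 dashed. Pdgfra stays between -0.51 and -0.44 and passes in all but the fit with the Y-linked covariate, and Pdgfc stays between 0.25 and 0.28 and passes in 10.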

How the data were processed

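RNA-seq of 6 libraries was deposited as 1 table of cRPKM values, a corrected RPKM. Per the file headers the authors trimmed the reads; Bowtie and mm9 come from the submitters' processing notes, and neither versions nor the correction are stated. Columns were matched to samples by the header text in each description. Of 22667 genes 21553 held values. Genotype was tested by limma 3.58.1 (R 4.3.3; eBayes with trend, 2-sided) on log2(cRPKM + 1) in 12315 genes averaging 1 cRPKM or more, with Benjamini-Hochberg adjustment over all of them and calls at 0.05. Fold changes are mutant minus wildtype and understate changes of low genes. The step was tested on simulated data. P-values measure the spread between embryos of 1 litter.

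The members and gene lists were chosen with earlier results of these data known. Named genes were the members, Fat4, the related receptors and ligands, up to 3 genes of each pathway list by unadjusted p, and the 3 nearest profiles of each member; marker genes, Igfbp7 and list genes too low to test were named after their values were seen. Positions are from GENCODE M21 (GRCm38), and promoters from RefSeq (GRCm38.p6; 4 members have an entry, not Pdgfb or Pdgfrb). Neither is the build of the values. Some genes that this rule picks are not reported here.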

Additional observations from a re-analysis of the deposited data

How the results depend on the processing

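The fall of Pdgfra kept its direction under all 15 alternatives and its call under 14, and the rise of Pdgfc its direction under all 15 and its call under 10. The Y-linked covariate, which leaves 3 residual degrees of freedom, ended both calls (log2 fold changes -0.448 and 0.271, limma adjusted p = 0.183 and 0.348), so that 0 members were called, and 2 genes in all; the other alternatives that ended the call of Pdgfc left out 1 library. With 1 library left out the fold change of Pdgfc ran from 0.254 to 0.281, 1 to 2 members were called, and the called genes numbered 24 to 132, against 176 with all libraries. There were 32 without a filter on low values, where 18735 genes were tested, 109 with a mean of at least 5 cRPKM, and 273 with the embryo number as a replicate block. Same-numbered embryos had deviations correlated at 0.099, 0.205 and 0.277 across genes, and not every library correlated best with its own number, so the numbers were not taken as pairs; the replicate block changed the call of no member, but with it Pgf passed (limma adjusted p = 0.0476), so that 1 related ligand was called against 0, and 7 nephron progenitor genes were called against 3. For the ratio of Pdgfra to Pdgfrb the paired difference was -0.415 and for the summed ligands 5.93 cRPKM, each with an exact sign-flip p of 0.25, the smallest for 3 pairs.

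Directions of genes that did not pass turned as follows. With 1 library left out, Pdgfa ran from -0.096 to 0.035, Pdgfd from -0.209 to 0.027, Kdr from -0.063 to 0.029, Vegfa from -0.051 to 0.047, Vegfc from -0.043 to 0.094, Flt1 from -0.005 to 0.128, Flt4 from -0.029 to 0.068, 5730559C18Rik from -0.074 to 0.044, Bcl7a from -0.079 to 0.042, Sox9 from -0.098 to 0.055, Gm561 from -0.198 to 0.050 and Cxcl12 from -0.204 to 0.027. With the Y-linked covariate Kdr was at 0.046, Vegfa at 0.077 and Vegfc at -0.001. Kdr was at 0.008 with library weights, and 5730559C18Rik at 0.006 with quantile normalisation. Pdgfb and Pdgfd could not be fitted at a mean of at least 5 cRPKM. Read totals are unknown, and 3 embryos a group limit the precision: the 95% interval of Pdgfd ran from -0.37 to 0.15.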
